A study of Mus musculus with 6 samples.

Results

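Adarb1 and Adar, the genes of the deaminases ADAR2 and ADAR1, are 2 of the 55450 genes measured by RNA-seq in 6 cultures of mouse T cells. They were chosen by gene name (GENCODE vM21), and both passed the filter on low values that left 14958 genes for testing. Naive CD4+ T cells of 8 to 12 week old mice were activated through CD3 and CD28 and driven toward the Th17 state, that of helper T cells that make interleukin 17, with 0.1 ng/mL TGF-beta and 20 ng/mL IL-6. They were transduced after 24 h with MSCV, a retroviral vector derived from murine stem cell virus, kept in 0.3 ng/mL TGF-beta and 20 ng/mL IL-6 for a further 48 h, and collected at 72 h. The 3 groups of 2 libraries carried the empty vector, ADAR2 WT, or ADAR2 E396A, which the labels describe as enzymatically dead. The labels describe cells of 2 wildtype mice. Which libraries share a mouse is not labelled and was inferred from test statistics in the authors' tables; the 2 sets of 3 libraries so paired, 1 per group, are called donors A and B here. The labels do not say whether transduced cells were separated from others, so a library may hold both.

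ADAR enzymes bind double-stranded RNA and turn adenosine into inosine, which ribosomes and reverse transcriptases read as guanosine. ADAR1 edits long duplexes, many of them from repeats, and its longer isoform is induced by interferon; this editing is known to keep cellular RNA from setting off the sensor MDA5. ADAR2 is best known for editing codons of neuronal transcripts such as Gria2, and is most abundant in the nervous system. A glutamate in the active site passes the proton needed for deamination, and E396A names an alanine in its place.

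The codon that E396A names was looked up in the reference transcripts, to show which part of the gene the constructs differ in. Of the Adarb1 transcripts annotated from their start codon, 3 hold the histidine, alanine and glutamate codons of the active site. In all 3 that glutamate codon, GAG, has the number that E396A names, and it lies in a coding exon at chr10:77313464-77313466 on the minus strand of GRCm38. The stretch is set beside the corresponding stretches of Adar, at chr3:89746630-89746632 on the plus strand (codon 861 of transcript Adar-203), and of Adarb2, the third gene of the family, at chr13:8697727-8697729 on the plus strand (codon 440). Each line gives 8 codons on either side of the glutamate codon, which is in capitals.
Adarb1: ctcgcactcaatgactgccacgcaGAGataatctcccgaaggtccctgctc
Adar: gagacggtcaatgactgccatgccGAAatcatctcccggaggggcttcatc
Adarb2: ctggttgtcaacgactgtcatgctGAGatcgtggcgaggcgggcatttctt
The Adar stretch was identical to that of Adarb1 at 35 of 51 bases, and the Adarb2 stretch at 30 of 51. These are reference sequences; the sequence of the constructs was not analysed here. Gene counts do not tell the constructs apart, nor the RNA of a construct from that of the cells' own Adarb1.

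The libraries held between 16496328 and 21897166 reads assigned to genes. The Th17 markers were all detected in every library, their summed level lying between 65312.6 and 112431.1 normalized counts (reads divided by a size factor of the library). Single markers differed in how far they varied between libraries. Il17a ranged from 2437 to 18145 and Il17f from 5202 to 31376, while Cd3e ranged from 3731 to 4742. Of 13 markers of B, myeloid, CD8, NK and stromal cells, the summed level was 184.8 to 207.9 normalized counts. Among these, Ms4a1 of B cells and Ncr1 of NK cells had 0 reads in all libraries, and Cd8b1 was highest, at 111.57 to 158.25. In bulk RNA, fewer cells that express a gene and less RNA per cell cannot be told apart.

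Adarb1 (ENSMUSG00000020262.15, chr10:77290726-77418270, minus strand) was abundant with the empty vector and several times higher with both constructs. Empty-vector cells of donor A had 3672 normalized counts and those of donor B 3333. ADAR2 WT libraries had 18422 (donor A) and 18999 (donor B). The corresponding ADAR2 E396A libraries had 15644 and 14920. All 4 construct libraries lay far above both empty-vector libraries, and the 3 groups did not overlap. The group means were 3502 ± 240.1 (SD, n = 2), 18711 ± 407 and 15282 ± 512.

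These levels rested on 3422 to 18975 reads of Adarb1 in a library. Counting error alone was then 0.73% to 1.71% of the value. Among all tested genes ordered by level per kilobase of exon, Adarb1 lay at places 2880 and 3164 of 14958 in the empty-vector libraries, 416 and 442 in the ADAR2 WT libraries, and 512 and 558 in the ADAR2 E396A libraries. It was thus already above the median gene without a construct: its level per exonic kilobase was 311 normalized counts with the empty vector, where the median tested gene had 77.7.

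**Figure D1:**
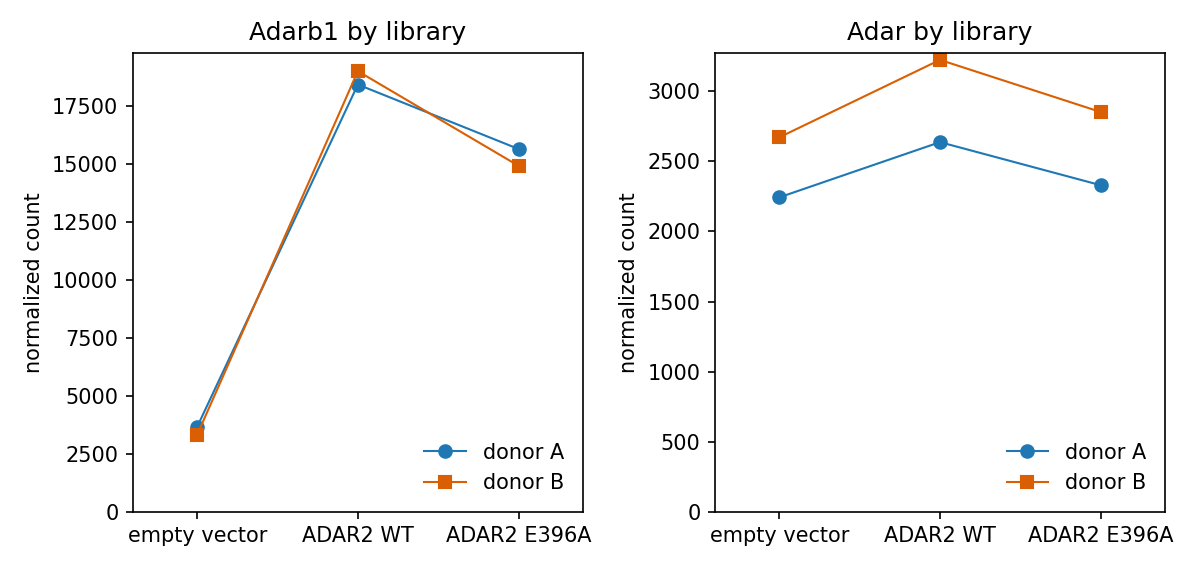
Normalized counts of Adarb1 (left) and Adar (right) in each of the 6 libraries, by group on the horizontal axis; lines join the libraries of 1 donor, and both vertical axes start at 0. Adarb1 lies between 3333 and 3672 with the empty vector and between 14920 and 18999 with the constructs, while the donor B line of Adar lies above the donor A line in every group.

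Adar (ENSMUSG00000027951.16, chr3:89715022-89753446, plus strand) had its highest value within each donor with ADAR2 WT, and was higher in donor B than in donor A in every group. In donor A, Adar had 2243 normalized counts (empty vector), 2637 (ADAR2 WT) and 2330 (ADAR2 E396A). In donor B the values were 2671, 3224 and 2852. The order within each donor was empty vector, ADAR2 E396A, ADAR2 WT, and the groups overlapped. The group means were 2457 ± 303 (SD, n = 2), 2930 ± 415 and 2591 ± 369. These SDs hold the step between donors; the differences within donors are given with each comparison.

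The step from donor A to donor B in Adar was 0.25 (empty vector), 0.29 (ADAR2 WT) and 0.29 (ADAR2 E396A) on the log2 scale. The median absolute step over all tested genes was 0.20, 0.17 and 0.19. For Adarb1 the steps were -0.14, 0.04 and -0.07, smaller than the median gene's in each group. Adar had 2154 to 3272 reads in a library, with a counting error of 1.75% to 2.15%.

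The balance of the members shifted toward Adarb1 with both constructs, from near equal if levels are taken per kilobase of exon. By that measure, the ratio of Adarb1 to Adar with the empty vector was 1.179 in donor A and 0.90 in donor B. ADAR2 WT libraries had 5.03 and 4.24, and ADAR2 E396A libraries 4.83 and 3.77. Donor A had the higher ratio in every group. Which gene is the higher with the empty vector depends on the length used: all exons together come to 11272 bases for Adarb1 and 8118 for Adar, and with the longest transcript of each the ratios were 1.45 and 1.11, with the longest coding length 2.71 and 2.07. The ratio with a construct was above 1 with each of these lengths.

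**Figure D2:**
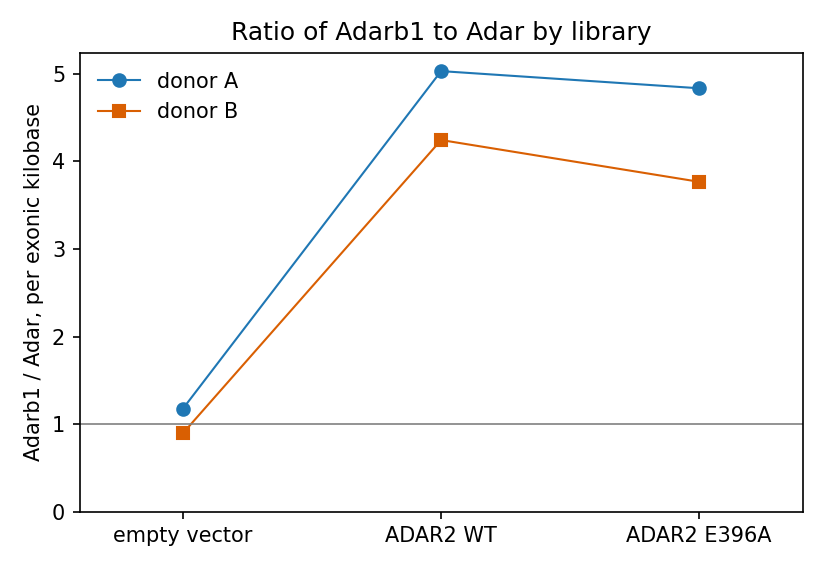
Ratio of the Adarb1 level to the Adar level, each per kilobase of exon, in each library, by group; lines join the libraries of 1 donor and the grey line marks equal levels. The empty-vector ratios of 0.90 and 1.179 lie on either side of 1, and the construct libraries lie between 3.77 and 5.03.

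The first comparison, of ADAR2 WT and empty vector, asks what came with the active enzyme. Adarb1 rose by 2.42 on the log2 scale (SE 0.07, 95% interval 2.27 to 2.57), or 5.35-fold, by 2.33 in donor A and 2.51 in donor B. By limma's test the adjusted p was 2.21e-06, the smallest of the 14958 genes tested, and by fold change it was the 7th highest. Adarb1 encodes the protein that the constructs carry, so its rise with either construct is no independent test. In this comparison 0.816% of genes passed at a threshold of 0.05 on limma's adjusted p, 0.441% higher and 0.374% lower. Groups that do not overlap are common with 2 libraries each: 18.7% of all tested genes had both ADAR2 WT libraries above both empty-vector libraries.

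Adar had a log2 fold change of 0.25 with ADAR2 WT (SE 0.06, 95% interval 0.11 to 0.40), 0.23 in donor A and 0.27 in donor B. It did not pass (limma adjusted p = 0.141; unadjusted p = 0.00391), nor by edgeR (adjusted p = 0.148) or DESeq2 (adjusted p = 0.258). It did pass limma's test with only the 4 libraries of the comparison (adjusted p = 0.0179). Fits with 1 library left out gave log2 fold changes of 0.23 to 0.27. The authors' deposited DESeq2 result has Adar at an adjusted p of 0.349.

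The second comparison, of ADAR2 E396A and empty vector, asks what came with the protein when it cannot deaminate. Adarb1 rose by 2.13 (SE 0.07, 95% interval 1.97 to 2.28; limma adjusted p = 6.48e-06), or 4.37-fold, by 2.09 in donor A and 2.16 in donor B. It was 1 of 2 genes that passed, 0.0134% of those tested, with 0.00669% higher and 0.00669% lower. Both ADAR2 E396A libraries were above both empty-vector libraries for 11.5% of genes. Adar had a log2 fold change of 0.07 (95% interval -0.07 to 0.22; limma adjusted p = 0.999), with 0.05 in donor A and 0.09 in donor B. Both comparisons use the same empty-vector libraries, so their values are not independent.

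The constructs were compared directly to ask whether they were present at a like level. ADAR2 WT libraries had more Adarb1 than ADAR2 E396A libraries, by 0.24 in donor A and 0.35 in donor B on the log2 scale, and the limma estimate was 0.29 (SE 0.07, 95% interval 0.14 to 0.44), or 1.22-fold. It did not pass after adjustment over all genes (limma adjusted p = 0.161, unadjusted p = 0.00204), in a contrast in which 0.0669% of genes did, 0.0134% higher and 0.0535% lower. The 2 groups did not overlap, which in this direction held for 19.4% of genes. In normalized counts, the level above the donor's own empty-vector library was 14750 and 15666 with ADAR2 WT against 11972 and 11587 with ADAR2 E396A. The difference passed limma's test with only the 4 libraries of the comparison (adjusted p = 0.0443). By DESeq2 over all 6 libraries it did not (adjusted p = 0.0803). Fits with 1 library left out gave log2 fold changes of 0.22 to 0.37. Adar was 0.18 higher with ADAR2 WT than with ADAR2 E396A in either donor (95% interval 0.03 to 0.32; limma adjusted p = 0.318). In these libraries any other difference between the constructs came with a higher measured Adarb1 level with ADAR2 WT. That difference in Adarb1 did not pass in the main fit, and its part in any other was not tested.

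**Figure D3:**
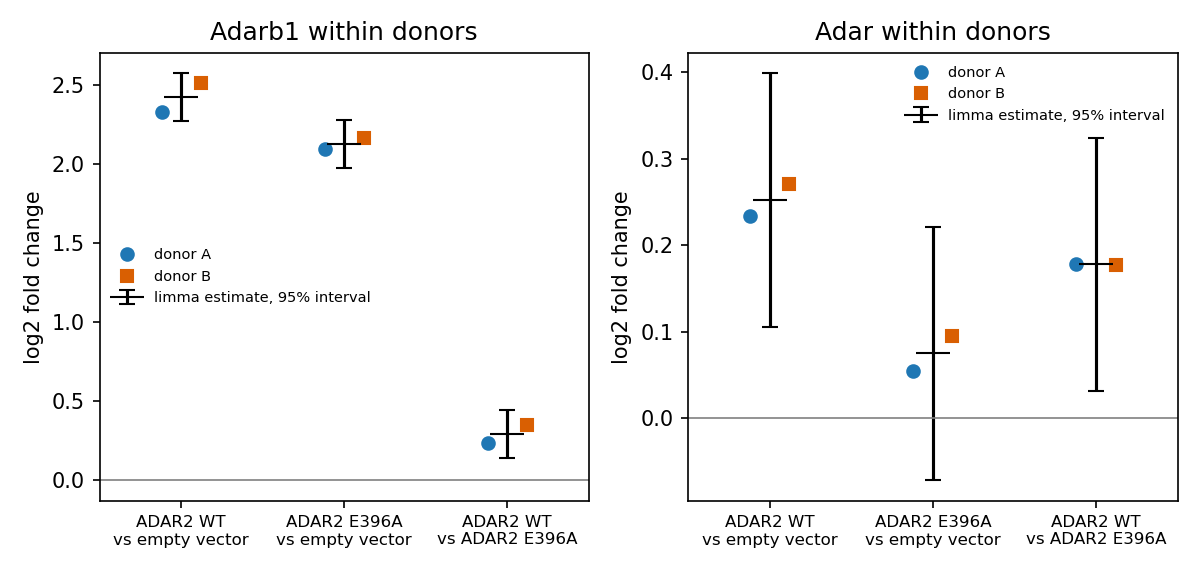
Log2 fold change of Adarb1 (left) and Adar (right) in the 3 comparisons; circles and squares are the values within donors A and B, and the black bars are the limma estimate with its 95% interval. The axes differ in scale: Adarb1 lies at 2.42 and 2.13 against the empty vector, and Adar at 0.25 and 0.07, with an interval that includes 0 for ADAR2 E396A.

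None of the other deaminase genes of the family passed in any comparison, where at most 0.816% of all tested genes did. Of the 6, 4 had at most 7 reads in a library. Adat1 and Adat2, which encode deaminases of transfer RNA, were at 133 to 187 and at 199.99 to 224 normalized counts. Per exonic kilobase Adat2 was at 136 to 153, above the median tested gene, and Adat1 at 30.3 to 42.6, below it. Their log2 fold changes with ADAR2 WT were 0.12 (SE 0.17) and 0.02 (SE 0.13), and with ADAR2 E396A 0.16 and -0.07. Adarb2, which encodes the brain protein ADAR3, had 0 to 4 reads in a library. Adad1, a germ cell gene with a deaminase-like domain, had 0 to 7 reads, and its relative Adad2 and Adat3, the partner of Adat2, had 0 or 1. These 4 genes did not pass the filter on low values.

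A list of 18 regulators or partners of ADAR proteins was made with earlier results of these data known. Of these, 17 were found in the data and tested, and 1 passed, with ADAR2 WT, where 0.441% of all tested genes rose. Zfr, which encodes a zinc finger RNA-binding protein known to restrain editing by ADAR proteins, had 2719 normalized counts in the empty-vector library of donor A, 4651 in its ADAR2 WT and 4117 in its ADAR2 E396A library. In donor B these were 2988, 4758 and 4334. Every construct library was thus above both empty-vector libraries, as held for 18.7% of all tested genes with ADAR2 WT and 11.5% with ADAR2 E396A. Zfr rose by 0.72 with ADAR2 WT (SE 0.06, limma adjusted p = 0.0049). Dropping the donor term left 0 of the 17 genes, a setting in which 2 of all tested genes passed. The log2 fold change of Zfr with ADAR2 E396A was 0.57. It did not pass by limma (adjusted p = 0.0711) or edgeR (adjusted p = 0.082) and did by DESeq2 (adjusted p = 7.34e-06). The median of the 17 genes was 0.03 with ADAR2 WT and -0.01 with ADAR2 E396A, where that of all tested genes was 0.00 and -0.01.

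None of the 6 genes of inosine-containing RNA binding or cleavage passed in any comparison. Of all tested genes 0.816% passed with ADAR2 WT, 0.0134% with ADAR2 E396A and 0.0669% between the constructs, so 0 of 6 says little. The largest log2 fold changes with ADAR2 WT were 0.13 (SE 0.06) for Hdlbp, which encodes vigilin, and 0.07 (SE 0.15) for Endov, which encodes an endonuclease that cuts at inosine. At an unadjusted p below 0.05 by limma the count was 0 in each comparison. In the same order, 14.1%, 3.89% and 12.4% of all tested genes reached that level. Both edgeR and DESeq2 called 0 of the 6 as well. Of 18 genes known to be recoded by editing, 11 were tested and 0 passed by limma, edgeR or DESeq2; 2 reached an unadjusted p below 0.05 with ADAR2 E396A and 0 with ADAR2 WT, as did 3.89% and 14.1% of all tested genes. Igfbp7 had the largest log2 fold change with ADAR2 WT, 0.55 (SE 0.37), followed by Tmem63b, at 0.23 (SE 0.11). These are changes in transcript level; editing itself was not measured in these files.

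The sensors of double-stranded RNA, the kind of RNA that ADAR enzymes edit, were listed with earlier results of these data known. Their counts are thus no independent test. Of 11 tested sensors, 3 rose with ADAR2 WT and none fell, where 0.441% of all tested genes rose. All 3 lay near the threshold. Dropping the donor term left 0 of them, a setting in which 2 of all tested genes passed. Fitting only the 4 libraries of the comparison gave 6 sensors, where 1237 of all tested genes passed. Ifih1, which encodes MDA5, had 565 normalized counts (empty vector), 862 (ADAR2 WT) and 613 (ADAR2 E396A) in donor A, and 1024, 1480 and 1259 in donor B. Ifih1 rose by 0.57 with ADAR2 WT (SE 0.09; limma adjusted p = 0.0371). As for Adar, donor B was the higher in every group. Eif2ak2, which encodes the kinase PKR, rose by 0.48 (SE 0.09; limma adjusted p = 0.0492), and Zbp1, a sensor of left-handed double-stranded RNA, by 0.48 (SE 0.08; limma adjusted p = 0.0436). With ADAR2 E396A 0 of the 11 passed by limma, edgeR or DESeq2, and 5 reached an unadjusted p below 0.05, against 3.89% of all tested genes. The difference between the constructs did not pass for any of them; for Ifih1 it was 0.36 (limma adjusted p = 0.186). The median of the 11 genes was 0.43 with ADAR2 WT and 0.18 with ADAR2 E396A.

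The interferon-stimulated genes, the group to which the longer Adar isoform belongs, were listed with earlier results of these data known. Their counts are thus no independent test. With ADAR2 WT 7 of the 34 members rose, against 0.441% of all tested genes, and none fell. This count was 0 without the donor term, a setting in which 2 of all tested genes passed. It was 21 with only the 4 libraries of the comparison, where 1237 of all tested genes passed. The median log2 fold change of the 34 members was 0.36, and 32 were positive. Of all tested genes 49.6% were positive, with a median of -0.0025. The 0.25 of Adar lies below the median of the 34 members. Irf7, a transcription factor of the response, had 168 normalized counts (empty vector), 321 (ADAR2 WT) and 249 (ADAR2 E396A) in donor A, and 365, 749 and 540 in donor B. Irf7 rose by 0.98 with ADAR2 WT (SE 0.10; limma adjusted p = 0.0125). Isg15, a ubiquitin-like modifier, had 67.7, 158 and 102 in donor A and 166, 443 and 211 in donor B, in the same order of groups. It rose by 1.31 with ADAR2 WT (SE 0.16; limma adjusted p = 0.0177). Within each donor both genes were highest with ADAR2 WT, and donor B was above donor A in each group. Ifi27l2a and Mx2 rose by 0.67 and 1.13.

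With ADAR2 E396A the median of the 34 genes was 0.17; 0 passed by limma, edgeR or DESeq2, and 8 reached an unadjusted p below 0.05, a level reached by 3.89% of all tested genes. Between the constructs the median was 0.27, with 0 passing by limma and edgeR, 1 by DESeq2 and 20 at an unadjusted p below 0.05, a level reached by 12.4% of all tested genes. Summed over the list, donor A had 39128 normalized counts (empty vector), 42979 (ADAR2 WT) and 38577 (ADAR2 E396A), and donor B 43162, 56891 and 48474. In both donors the sum was highest with ADAR2 WT, and in donor A the sum with ADAR2 E396A was the lowest. The part of the interferon-stimulated genes in the Adar values was not tested.

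**Figure D4:**
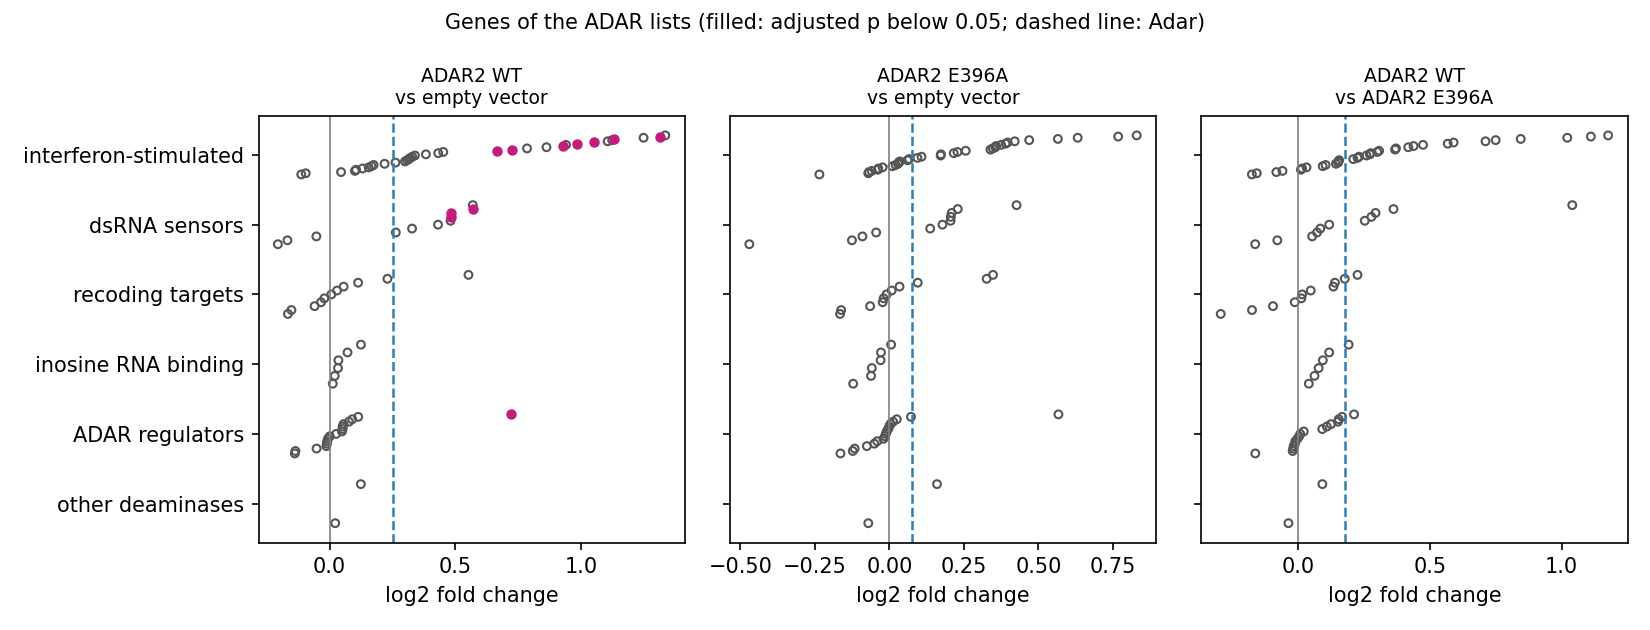
Log2 fold change of each tested gene of 6 lists in the 3 comparisons; 1 circle is 1 gene, filled where the limma adjusted p is below 0.05, and the dashed line is the value of Adar. The filled circles, all in the comparison of ADAR2 WT with the empty vector, are Zfr, 3 sensors and 7 interferon-stimulated genes; the 3 panels differ in horizontal scale.

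RefSeq (GRCm38.p6) gives 3 start-site windows for Adar and 1 for Adarb1, each of 300 bases, most of them before the start. The most downstream Adar window is shown because it holds the letters GAAANNGAA, part of the interferon-response element, on either strand. It is chr3:89730468-89730767, plus strand, with the matches in capitals.
Adar: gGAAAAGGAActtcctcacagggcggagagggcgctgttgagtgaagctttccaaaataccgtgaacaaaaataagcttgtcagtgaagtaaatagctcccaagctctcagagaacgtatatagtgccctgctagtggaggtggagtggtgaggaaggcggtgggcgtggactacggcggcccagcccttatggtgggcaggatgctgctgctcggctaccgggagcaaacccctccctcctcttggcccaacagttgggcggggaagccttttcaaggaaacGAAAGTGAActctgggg
The matches start 249 bases before and 33 bases after the start site, and the other windows of Adar and the window of Adarb1 hold none. The motif was chosen after this window had been read. The longer form, with 1 more A at its end, was seen not to match there before the shorter was chosen, and is in none of these windows. Of all 32851 windows of this length, 8.56% hold the shorter form, and by gene 9.76% do, against 14 of 27 interferon-stimulated genes and 6 of 8 sensors with a window. By gene, the longer form is in 3.99%, in 12 of the 27 and in 5 of the 8. Gene counts do not show which Adar start was used.

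The neighbours of the members in the genome did not pass in any comparison, where at most 0.816% of all tested genes did. No annotated gene overlaps Adarb1. Pofut2, a fucosyltransferase gene 21151 bases away, had a log2 fold change of 0.32 for ADAR2 WT against empty vector (SE 0.10; limma adjusted p = 0.226). Fam207a on the other side had 0.07 (SE 0.09). Chrnb2, a nicotinic receptor subunit gene, overlaps Adar on the opposite strand and had 36 to 68 reads in a library. The strand setting of the counting is not given in the sources used here, and 68 reads are few beside the 2154 or more of Adar. Pmvk and Ube2q1, the nearest tested genes beside Adar, had 0.04 and 0.02 with ADAR2 WT.

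The genes whose levels most resembled those of each member were found by Pearson's r of log2(normalized count + 1) over the 6 libraries, among 10035 protein-coding genes whose mean reached 50 normalized counts. For Adarb1 they were Dazap1 (r = 0.981), Lztfl1 (0.98), Zfr (0.978), Zfp638 (0.974) and Dnajc19 (0.968). Of these only Zfr passed in any comparison. The log2 fold changes of the other 4 with ADAR2 WT lay between 0.09 for Zfp638 and 0.36 for Dazap1, far below the 2.42 of Adarb1. The 6 libraries form 3 groups, so an r near 1 says mainly that a gene separates empty vector from constructs in the same order.

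For Adar they were Tmtc3 (r = 0.997), Ccdc66 (0.997), Cyp51 (0.996), Cnot9 (0.994) and Trim30d (0.992). Cyp51 encodes an enzyme of cholesterol synthesis and Cnot9 a subunit of a deadenylase complex. All 5 shared the higher values of donor B and had ADAR2 WT above empty vector within each donor. Adar has this pattern itself, so picking genes by r with Adar largely set it in advance. Trim30d had 919 normalized counts (empty vector), 1232 (ADAR2 WT) and 973 (ADAR2 E396A) in donor A, and 1252, 1833 and 1562 in donor B. It rose by 0.49 with ADAR2 WT (limma adjusted p = 0.0436), and the other 4 did not pass. That call was lost without the ADAR2 WT library of donor A, where Adarb1 was the 1 gene that passed. Between Adarb1 and Adar themselves r was 0.465.

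**Figure D5:**
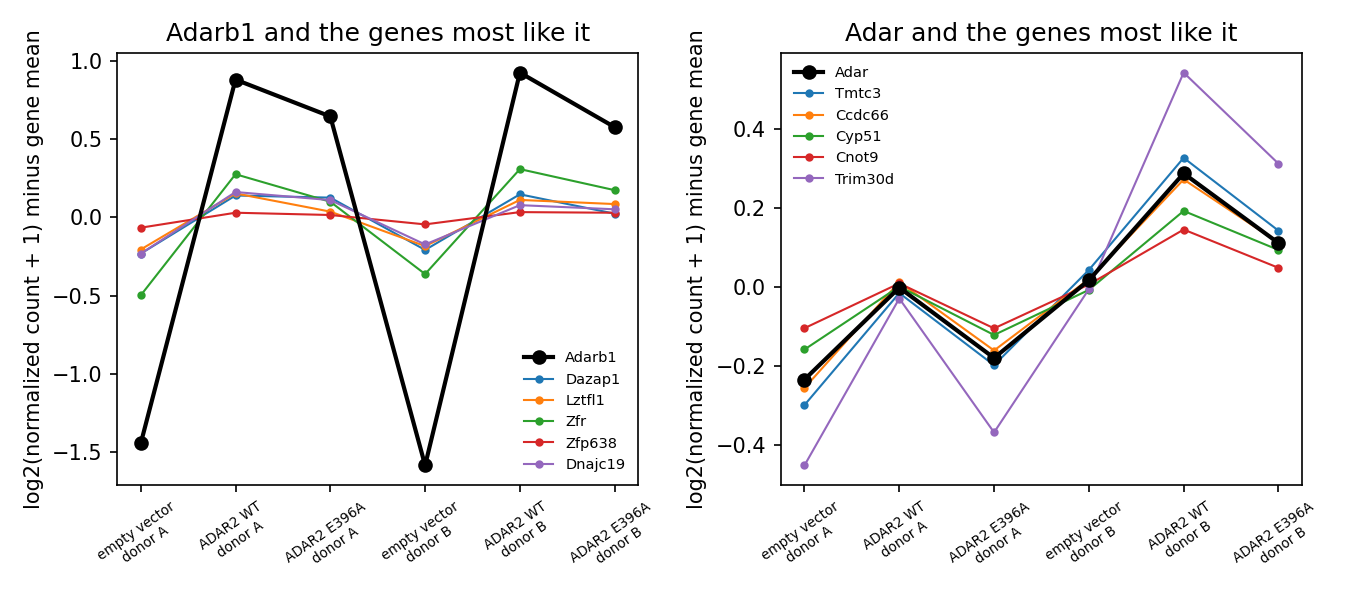
Level of Adarb1 (left, black) and Adar (right, black) and of the 5 genes most like each, as log2(normalized count + 1) minus the gene's mean over the 6 libraries, with 1 position per library along the horizontal axis. The genes beside Adarb1 follow its low empty-vector values over a much smaller range, and those beside Adar share its higher values in donor B; the panels differ in vertical scale.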

How the data were processed

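Ribosome-depleted RNA was sequenced. The tools named per the submitters' processing notes are STAR 2.6.1a, featureCounts and DESeq2, and the build is mm10. Per the file headers, each of 2 tables deposited by the authors holds normalized counts (a signal never below 0), the log2 fold change, the Wald statistic (a score) and p-values. Their sign was turned, so that positive means higher with the construct.

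Library columns carry no group labels. A library found in both tables was read as empty vector, and any other as the construct in its table's name. Donor pairing was read from the authors' Wald statistics, not from labels: refits with the pairing used differed from them by at most 0.0011, and with crossed donors by up to 13.8. The labelled replicate numbers could not be tied to donors A and B. The main fit has a term for donor, which takes out the step in level between these 2 mice. Its p-values rest on how far the group differences varied from mouse to mouse, and on the spread shared across genes. They cover no other mice.

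Reads were recovered from the normalized counts (100% whole within 0.001), scaled over 6 libraries and reduced to genes that edgeR's filterByExpr keeps. limma 3.58.1 (R 4.3.3) was fitted to log2(normalized count + 1) with terms for group and donor, and p-values were adjusted by Benjamini-Hochberg with a threshold of 0.05. The design had named limma's empirical Bayes test with no mean-variance trend. That was run first. It passed 0 genes in every comparison, Adarb1 included, and made no call when tested on simulated data with known answers. A trend was then added, after those results were seen, and with it the test on simulated data made calls. All limma values in the text are from this second setting. edgeR 4.0.16 and DESeq2 1.42.0 were run on the recovered reads as alternatives, beside other scalings, filters, pseudocounts, the 4 libraries of a comparison and each library left out.

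The members and gene lists were chosen with earlier results of these data known. Named genes are the members, their family, up to 4 passing genes of a list (otherwise the 2 largest changes with ADAR2 WT), neighbours, and the 5 genes most like each member.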

Additional observations from a re-analysis of the deposited data

How the results depend on the processing

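The choice of limma setting decides the calls. Without a mean-variance trend, the setting run first, the numbers of genes that passed were 0, 0 and 0 for ADAR2 WT against empty vector, ADAR2 E396A against empty vector, and ADAR2 WT against ADAR2 E396A, and Adarb1 kept its fold changes of 2.42 and 2.13 but did not pass (adjusted p = 0.32 and 0.706). The trend was chosen after seeing this. edgeR and DESeq2 called Adarb1 against the empty vector for both constructs (edgeR adjusted p = 3.42e-06 and 9.33e-06). As run here, both also fit the spread as a trend on the mean level. They therefore cannot show whether the calls depend on such a trend.

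In the same order, against 122, 2 and 10, the counts were 2, 1 and 0 with no replicate block for donor, 214, 7 and 109 by DESeq2, 220, 5 and 102 with no filter, and 1237, 1 and 194 with only the 4 libraries of the comparison. With a mean of at least 50 they were 58 in the first and 3 in the third comparison, and with TMM scaling 39 in the third. Leaving out 1 library gave 1 to 1217, 1 to 127 and 0 to 844; the ends are without ADAR2 WT of donor A (1, 1 and 0), ADAR2 E396A of donor B (1217) and ADAR2 E396A of donor A (127 and 844). In the comparison of ADAR2 WT with empty vector, the regulators, sensors and interferon-stimulated genes that passed, 1, 3 and 7, were 0, 0 and 0 with no replicate block, without the trend, and without either ADAR2 WT library. The sensors were also 0 with a mean of at least 50, and with only 4 libraries the counts were 1, 6 and 21. Where 1 library of a group remained, it was assumed to vary like the others.

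Every alternative kept the direction of the 6 fold changes of Adarb1 and Adar. With no replicate block Adarb1 still passed against the empty vector, and the block changed no other call of the members. Adar with ADAR2 WT passed with only 4 libraries (0.25, adjusted p = 0.0179); leaving out 1 library gave 0.23 to 0.27 (adjusted p 0.0227 to 0.95). Adarb1 between the constructs passed with only 4 libraries (0.29, adjusted p = 0.0443); leaving out 1 library gave 0.22 to 0.37 (adjusted p 0.0163 to 0.994).

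The log2 ratio of Adarb1 to Adar in the empty-vector library of donor B, -0.15 per exonic kilobase, reversed to 0.15 with the longest transcript and to 1.05 with the longest coding length, which was added after seeing the data. That of donor A went to 0.54 and 1.44. With ADAR2 WT the ratios were 2.63 and 2.39 (donors A and B) with the longest transcript and 3.53 and 3.29 with the coding length, and with ADAR2 E396A 2.57 and 2.21, and 3.48 and 3.12.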
